A study of Mus musculus with 26 samples.

Results

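H19, Igf2 and Ins2 are neighbouring imprinted genes at the distal end of mouse chromosome 7, and their 3 rows were read out of the 55291 gene rows of each of 2 RNA-seq count tables. The members were chosen by the H19 counts, which had been seen at a lower level in every mutant group of neural progenitor cells (NPCs), and Igf2 and Ins2 were added as its neighbours at the locus. The H19 levels in NPCs, and the members' values in the mutant NPC comparisons, are therefore given as a description with no test. Calls of other genes in those comparisons rest on the edgeR test and are given without a p. H19 and Igf2 passed the filter on low counts in both tables, and Ins2 passed it in neither.

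The study compared mouse E14 embryonic stem cells (ESCs) and NPCs made from them by 2 days in N2B27 medium on laminin. In the first table all 4 groups carried the CTCF-AID2 degron, in which both endogenous CTCF alleles bear an mAID-eGFP tag and OsTir1(F74G) sits at Rosa26, with a doxycycline-inducible Flag-Halo-CTCF at the Tigre locus. That transgene was either full length (ESC-WT and NPC-WT, n = 2 each) or lacked zinc finger 1 (ESC-ΔZF1 and NPC-ΔZF1, n = 2 each), and all 4 groups received 1 µM 5-Ph-IAA and 1 µg/mL doxycycline for 24 h, so that endogenous CTCF was being degraded in the control groups too. In the second table, unmodified E14 WT cells were set beside lines with a cassette of eGFP and the SV40 polyadenylation signal (SV40pA) after the first coding exon of Podxl or of Grb10 (Podxl pA and Grb10 pA), each as ESCs and as NPCs (n = 3 each), with no degron and neither agent. The labels give 1 line per genotype, and each rescue line was a single clone, so that genotype and line cannot be told apart there. How many clones stand behind each truncation line is not stated.

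H19 is a long noncoding RNA and Igf2 encodes insulin-like growth factor 2, a fetal growth factor. In mouse embryos H19 is made from the maternal chromosome and Igf2 from the paternal one, and both draw on enhancers that lie beyond H19. The imprinting control region between them binds CTCF on the unmethylated maternal copy, where it insulates Igf2 from those enhancers, while methylation of the paternal copy keeps CTCF away and silences H19. Ins2, an insulin gene, lies on the other side of Igf2 and is imprinted in the yolk sac. The counts hold no information on the parent of origin.

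In the GENCODE M21 annotation of GRCm38, H19 (ENSMUSG00000000031.16) runs on the minus strand of chromosome 7 from 142575529 to 142578143 with 2460 exonic bases. Igf2 (ENSMUSG00000048583.16) lies on the same strand from 142650766 to 142666816 with 5723 exonic bases, and Ins2 (ENSMUSG00000000215.11) from 142678656 to 142743381 with 1312. Reads were counted without regard to strand. Of the exonic bases of Igf2, 62.8% are shared with the same-strand gene model Gm49394, which held at most 5 counts in a library, and 1.71% with the antisense transcript Igf2os, so a part of each gene's count is uncertain. H19 shares few bases with other models (90.9% of its exonic bases are its own), and Ins2 shares none.

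Both loci also host microRNAs, whose mature sequences are shown because their sites mark which part of each host transcript a microRNA is cut from. They are from RefSeq, on GRCm38.p6, minus strand of chromosome 7, written 5′ to 3′ with the seed (bases 2 to 8) in capitals, and no seed is shared between them. The miR-675 pair (142577112 to 142577133 for the 5p arm, 142577078 to 142577099 for the 3p arm) lies in an H19 exon and is contained in 3 of 7 annotated H19 transcripts. The miR-483 pair (142654968 to 142654989 and 142654932 to 142654952) lies within Igf2, outside its exons, and is in 0 of 9 transcripts.
mmu-miR-675-5p: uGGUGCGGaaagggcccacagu
mmu-miR-675-3p: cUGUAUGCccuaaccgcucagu
mmu-miR-483-5p: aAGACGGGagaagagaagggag
mmu-miR-483-3p: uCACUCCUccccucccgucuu
The row of Mir675, all 84 bases of which lie inside H19 exons, held 0 counts in every library, and that of Mir483 held 0 to 8. Those bases belong to H19 as well and the libraries were not made for small RNA, so a count of 0 cannot be read as absence.

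The rescue libraries held 6425179 to 28730435 counts and the truncation libraries 1907505 to 8845087, so 3 counts, the most that a count of 0 allows, came to 0.106 to 0.459 CPM and 0.338 to 1.55 CPM (counts scaled to a TMM-adjusted library of 1000000). The tables were normalized separately, and levels set across them are not tested. The pair of NPC-WT libraries differed more than any other pair of replicates (chi-square per degree of freedom 63.1, against a lowest of 1.69 among 22 pairs). The pluripotency markers had a summed level of 5917 to 6010 CPM in ESC-WT and 622 to 825 CPM in NPC-WT. Neural progenitor markers were counted where they passed the filter in ESCs alone. Of these, 4 of 9 rose and 1 fell from ESC-WT to NPC-WT (median log2 fold change -0.0025). In the ΔZF1 line 6 of 9 rose and 1 fell (1.31), and in E14 WT 3 of 6 rose and 2 fell (0.197). Of all such genes 20.5%, 18.1% and 13.1% rose in the 3 lines, and 21.8%, 18.5% and 17.6% fell. Summed over all 12 listed, these markers were at 512 to 530 CPM in ESC-WT and 345 to 426 in NPC-WT. The sum was 519 to 526 CPM in ESC-ΔZF1 and 830 to 861 in NPC-ΔZF1. In E14 WT it was 522 to 639 CPM in ESCs and 429 to 521 in NPCs. Sox1 was higher in the NPCs than in the ESCs of every line, at 16.8 to 22.0 CPM in NPC-WT, 39.2 to 40.4 in NPC-ΔZF1 and 74.1 to 83.8 in NPC E14 WT, while the later markers Fabp7 and Hes5 were at 0 or below 1 CPM in every library. Podxl was at 20.8 to 24.3 CPM in Podxl pA NPCs against 232 to 259 in E14 WT, and Grb10 at 52.2 to 59.4 CPM in Grb10 pA NPCs against 769 to 814. The Ctcf row counts endogenous and transgene RNA together and cannot check the deletion.

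**Figure D1:**
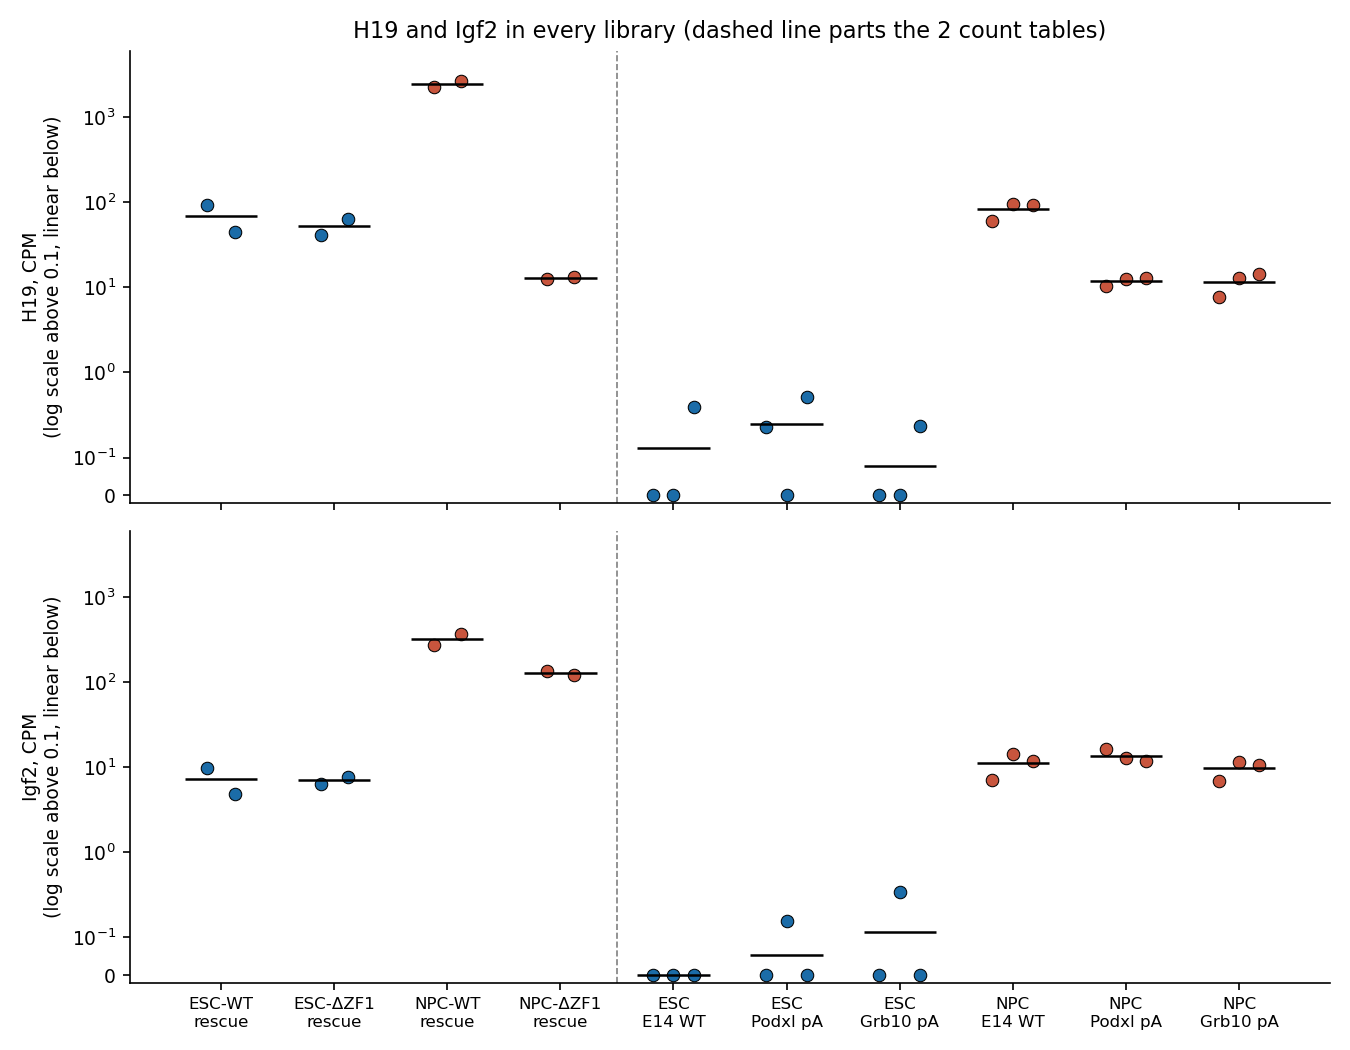
H19 (top) and Igf2 (bottom) in CPM, on a log scale above 0.1 and a linear one below, in each library (points; blue ESC, red NPC) of the 10 groups, with the group mean as a bar. H19 stands at 2243 and 2656 CPM in NPC-WT rescue and at 12.6 and 13.1 in NPC-ΔZF1, while Igf2 stands at 274 and 370 and at 134 and 120.

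H19 was higher in NPCs than in ESCs of the WT rescue line and lower in NPCs than in ESCs of the ΔZF1 line, which put NPC-ΔZF1 far below NPC-WT. ESC-WT held 604 and 691 H19 counts (92.3 and 45.1 CPM), and NPC-WT held 52942 and 30905 (2243 and 2656 CPM). The 2 groups were far apart, with a fitted log2 fold change of 5.18, or 36.3-fold, rank 55 from the highest of 16641 genes tested. ESC-ΔZF1 held 564 and 929 counts (41.4 and 62.7 CPM), and NPC-ΔZF1 held 357 in both libraries (12.6 and 13.1 CPM). Here every NPC library was below every ESC library, with a log2 fold change of -2.02, or 4.05-fold lower. Setting NPC-ΔZF1 beside NPC-WT, the log2 fold change was -7.57 (SE 0.37), 190-fold lower and the lowest value among all genes tested. Genes were called where the adjusted p did not exceed 0.05 and the log2 fold change was 0.5 or more in either direction, and 7.19% of all genes were called higher and 10.5% lower in that comparison. The 1326 genes of chromosome 11 had a median log2 fold change of -0.56 there. How many of the genes called lower lie on that chromosome was not counted. With each of the 4 libraries left out in turn, the H19 value stayed between -7.69 and -7.46.

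Without differentiation, no difference between the rescue lines was detectable for either gene. The log2 fold change of H19 in ESC-ΔZF1 against ESC-WT was -0.37 (SE 0.29, adjusted p = 0.577, edgeR's quasi-likelihood test with Benjamini-Hochberg adjustment), and the mean levels of 52.1 ± 15.1 and 68.7 ± 33.4 CPM (SD, n = 2 each) came from libraries that overlapped. Its sign turned to 0.22 without the first ESC-WT library, so neither a direction nor equality can be read from it. Igf2 was at 9.78 and 4.89 CPM in ESC-WT and at 6.32 and 7.63 CPM in ESC-ΔZF1, with a log2 fold change of 0.05 (SE 0.30, adjusted p = 0.966, same test). Its sign turned to -0.47 without the second ESC-WT library and to -0.08 without the second ESC-ΔZF1 library. Of all genes, 1.29% were called higher and 2.33% lower in this comparison, where chromosome 11 genes had a median log2 fold change of -0.46.

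Igf2, the growth factor, rose with differentiation in both rescue lines. Its counts went from 64 and 75 in ESC-WT to 6477 and 4309 in NPC-WT (274 and 370 CPM), and from 86 and 113 in ESC-ΔZF1 to 3810 and 3272 in NPC-ΔZF1 (134 and 120 CPM). The log2 fold change was 5.57 in the WT line (SE 0.28, adjusted p = 6.6e-07, edgeR) and 4.19 in the ΔZF1 line (SE 0.26, adjusted p = 1.29e-06, edgeR), which is 47.6-fold and 18.2-fold. The share of all genes called higher was 22% and 20.4%, and the share called lower 19.9% and 16.9%. In NPC-ΔZF1 both Igf2 libraries lay below both NPC-WT libraries, by a log2 fold change of -1.34 (SE 0.21), or 2.53-fold, which ranked 406 from the lowest of 16641 genes. Within this pair of groups H19 was 190-fold lower and Igf2 2.53-fold lower. In bulk RNA, fewer cells that make a transcript and less of it in each cell cannot be told apart.

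The antisense transcript Igf2os was higher in NPCs too. It had 23 and 13 counts in ESC-WT and 1002 and 513 in NPC-WT (42.5 and 44.1 CPM), a rise of 4.62 on the log2 scale (SE 0.40, adjusted p = 1.2e-05, edgeR). In NPC-ΔZF1 it had 552 and 428 counts (19.5 and 15.7 CPM), with both libraries below NPC-WT and a log2 fold change of -1.30 (SE 0.28). The ratio of Igf2os to Igf2 counts was 0.119 to 0.155 in NPC-WT and 0.131 to 0.145 in NPC-ΔZF1. Because strand was not used, reads over the bases shared by the pair cannot be assigned to either.

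Ins2 was at the edge of detection. It had 0 counts in both ESC-WT libraries and 6 and 8 in NPC-WT (0.254 and 0.688 CPM), which is at least 2.90-fold higher against the limit of 3 counts over the ESC-WT group. NPC-ΔZF1 had 1 and 0 counts. The ratio of NPC-WT to NPC-ΔZF1 was 22.1, with an exact 95% interval of 3.36 to 933 that covers counting error only. Since Ins2 failed the filter on low counts, neither a p nor a fitted fold is given for it. In ESC-ΔZF1 it had 0 and 1 counts. No truncation library held more than 1 Ins2 count.

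In the truncation table, whose lines carry no degron, both genes were at or under the limit of detection in ESCs. The 9 ESC libraries of the truncation table held 4 H19 counts in all, with 5 libraries at 0, and 2 Igf2 counts, with 7 libraries at 0, out of 37968018 counts. A count of 0 allows up to 0.469 to 1.55 CPM in these libraries, and the rescue-line ESCs held 41.4 to 92.3 CPM of H19 in the separately normalized first table. With both arms of the Podxl pA and Grb10 pA ESC comparisons at or under that limit, no fold is given, and neither gene was called there. Of all genes, 0.0829% were called higher and 0.256% lower in ESC Podxl pA, and 4.51% and 4.58% in ESC Grb10 pA.

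In the NPCs of these 3 lines H19 and Igf2 were measurable. Both passed the filter on low counts only through the NPC libraries, so their differences from ESCs are given as a description with no p. NPC E14 WT held 188, 622 and 278 H19 counts (60.8, 95.0 and 93.7 CPM), against 0, 0 and 1 in its ESCs. The ratio of their levels was 1123, with an exact 95% interval of 201 to 44379 for counting error. For Podxl pA the ratio was 77.1 (21.0 to 641) and for Grb10 pA 128 (22.7 to 5070). Igf2 in NPC E14 WT had 22, 93 and 35 counts (7.12, 14.2 and 11.8 CPM) against 0 in every ESC library, at least 51.6-fold higher. For Podxl pA the Igf2 ratio of NPCs to ESCs was 168 (29.9 to 6679) and for Grb10 pA 106 (18.7 to 4204), each resting on 1 ESC count, and the fitted log2 fold changes ran from 6.52 to 8.94 and from 5.80 to 8.48 with single libraries left out, highest without the second ESC library, which held that count. The share of all genes called higher was 16.5%, 17.1% and 17.2% in the 3 lines, which are E14 WT, Podxl pA and Grb10 pA in that order, and the share called lower was 16.3%, 14.7% and 17.4%.

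In both truncation lines every H19 level in NPCs was below those of NPC E14 WT, while the Igf2 levels overlapped. NPC Podxl pA held 40, 67 and 78 H19 counts (10.3, 12.6 and 13.0 CPM), all below the E14 WT libraries. The log2 fold change was -2.79 (SE 0.20), 6.91-fold lower and rank 5 from the lowest of 13268 genes tested, where 0.384% of genes were called higher and 0.166% lower. NPC Grb10 pA held 69, 52 and 83 H19 counts (7.76, 13.0 and 14.2 CPM), again all below E14 WT. Here the log2 fold change was -2.90 (SE 0.20), 7.45-fold lower and rank 11 from the lowest, where 7.9% of genes were called higher and 8.64% lower. Both comparisons share the 3 NPC E14 WT libraries.

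Igf2 was at 16.2, 12.8 and 11.8 CPM in NPC Podxl pA, with a log2 fold change of 0.22 (SE 0.24), and at 6.86, 11.5 and 10.6 CPM in NPC Grb10 pA, with -0.30 (SE 0.25). Igf2os had 25, 33 and 51 counts in NPC Podxl pA, against 15, 30 and 16 in NPC E14 WT and 12, 7 and 8 in NPC Grb10 pA. In CPM, every Podxl pA library was above E14 WT, though the difference of 0.54 on the log2 scale was not called, and every Grb10 pA library was below it, with -1.73 (SE 0.37). The ratio of Igf2os to Igf2 counts was 0.397 to 0.718 in NPC Podxl pA and 0.323 to 0.682 in NPC E14 WT, which overlapped, and 0.129 to 0.197 in NPC Grb10 pA.

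Within a library, the ratio of H19 to Igf2 counts needs no normalization between libraries, and it was chosen after the values were seen. It is a ratio of counts, not of levels per length. It was 9.44 and 9.21 in ESC-WT, 6.56 and 8.22 in ESC-ΔZF1, and 8.17 and 7.17 in NPC-WT. In NPC E14 WT it was 8.55, 6.69 and 7.94. These 4 groups thus had a ratio between 6.56 and 9.44 although their H19 levels ran from 41.4 to 2656 CPM. In NPC-ΔZF1 the ratio was 0.0937 and 0.109, so Igf2 counts exceeded H19 counts. In NPC Podxl pA it was 0.635, 0.985 and 1.10, and in NPC Grb10 pA 1.13, 1.13 and 1.34. No library of these 3 mutant groups reached any of the other 4.

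**Figure D2:**
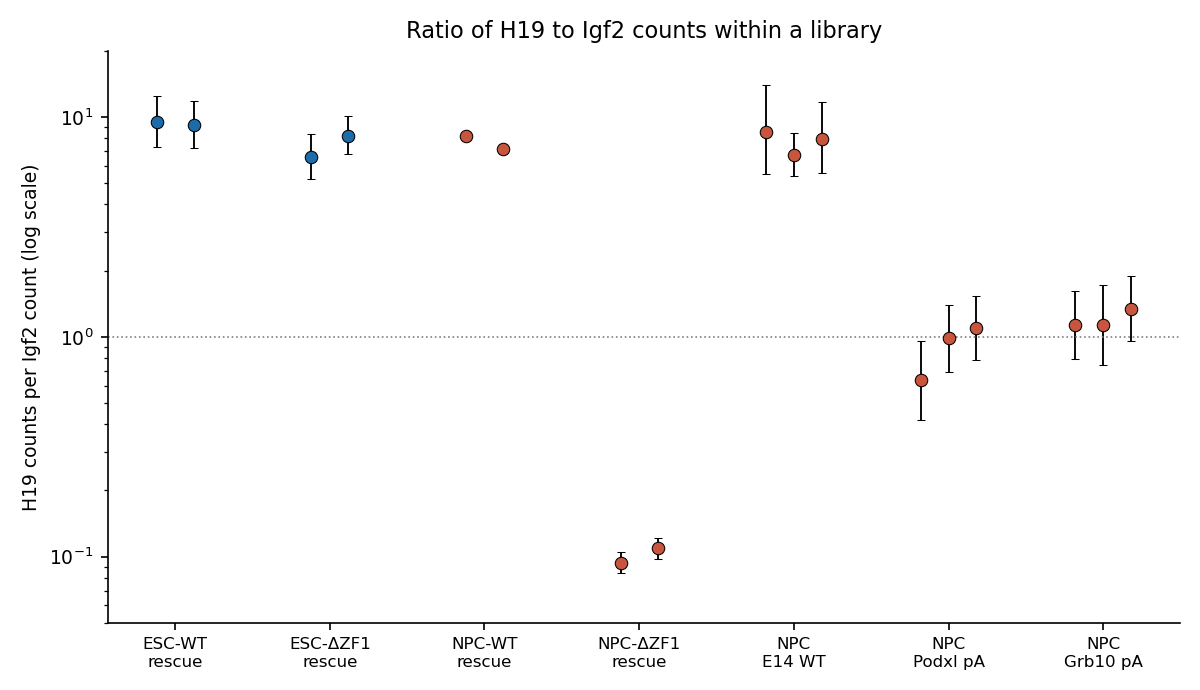
H19 counts per Igf2 count in each library (points; blue ESC, red NPC) on a log scale, with exact 95% binomial intervals for counting error, for the 7 groups in which both genes were measurable. NPC-ΔZF1 lies near 0.1, Podxl pA and Grb10 pA NPCs lie between 0.635 and 1.34, and the other groups lie between 6.56 and 9.44.

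In order of mean CPM, H19 was highest in NPC-WT, followed by NPC E14 WT, ESC-WT and ESC-ΔZF1, whose libraries overlapped. Below these came NPC-ΔZF1 (12.9 ± 0.388 CPM, SD, n = 2), NPC Podxl pA (12.0 ± 1.47, SD, n = 3) and NPC Grb10 pA (11.6 ± 3.41, SD, n = 3), which overlapped one another, and then the 3 ESC groups of the truncation table. For Igf2 the order was NPC-WT (322 ± 67.8 CPM, SD, n = 2), NPC-ΔZF1 (127 ± 9.85, SD, n = 2), then NPC Podxl pA, NPC E14 WT, NPC Grb10 pA, ESC-WT and ESC-ΔZF1 with overlapping neighbours, and last the ESCs of the truncation table. NPC-ΔZF1 thus stood at rank 5 for H19 and at rank 2 for Igf2. Per kilobase of exon, NPC-WT held 996 ± 119 CPM of H19 and 56.3 ± 11.8 CPM of Igf2 (SD, n = 2), or 159 CPM per kilobase for Igf2 if its counts came only from its unshared bases.

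Besides the members, 57 genes lie within 500 kb of the stretch from H19 to Ins2. Of these, 17 were tested in the rescue table (Dusp8, Ctsd, Tnni2, Lsp1, Prr33, Tnnt3, Mrpl23, Gm33148, Igf2os, Th, Ascl2, Tspan32os, Tspan32, R74862, Cd81, Trpm5 and Tssc4) and 8 in the truncation table. Of the 17, 12 passed the filter in ESCs alone, and from ESC-WT to NPC-WT 8 of those 12 rose and 0 fell, where 20.5% of all genes that passed in ESCs rose and 21.8% fell. Over all 17 the count was 12 higher, and 7 to 12 under the alternatives, but 4 of these passed only through the NPCs and so had to be higher (Tnni2, Prr33, Th and Tnnt3). Without the first NPC-WT library 2 of the 17 were called lower. Those that rose included the trophoblast regulator Ascl2 (log2 fold change 4.12, SE 0.25, adjusted p = 1.43e-06, edgeR) and Dusp8, which encodes a phosphatase of MAP kinases (3.87, SE 0.22, adjusted p = 1.09e-06, edgeR). In the ΔZF1 line 7 of the 12 rose and 0 fell, where 18.1% of all such genes rose. In E14 WT, Podxl pA and Grb10 pA alike 5 neighbours passed in ESCs alone, of which 1 rose, the mitochondrial ribosomal protein gene Mrpl23, and 0 fell. Of all such genes 13.1%, 13.5% and 13.9% rose in these lines.

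In NPC-ΔZF1 against NPC-WT, 0 of the 17 neighbours were called higher and 6 lower, beside 7.19% and 10.5% of all genes. The median log2 fold change of the neighbours was -0.58, that of all genes -0.0026 and that of chromosome 7 genes -0.02. The 6 were Tnni2 (-2.27, SE 0.56), Dusp8 (-1.34, SE 0.17), Igf2os (-1.30, SE 0.28), Lsp1 (-1.10, SE 0.20), Tnnt3 (-1.05, SE 0.23) and Ascl2 (-0.73, SE 0.18). Only 12 of the 17 passed the filter in ESCs alone, and Tnni2 and Tnnt3 passed only through the NPCs. A gene that passed only through NPC-WT had to be lower in NPC-ΔZF1. Through which NPC group the rest passed was not examined, and the count and the median of the neighbours include them. H19, which was chosen for its lower level in the mutant NPCs, was at -7.57. The number called lower was 8 (and 1 higher) without the first NPC-WT library, 5 without the second, 3 without the first NPC-ΔZF1 library and 1 without the second. None of 8 neighbours was called in NPC Podxl pA, and Igf2os alone was called, lower, in NPC Grb10 pA. The shares of all genes called lower were 0.166% and 8.64%.

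**Figure D3:**
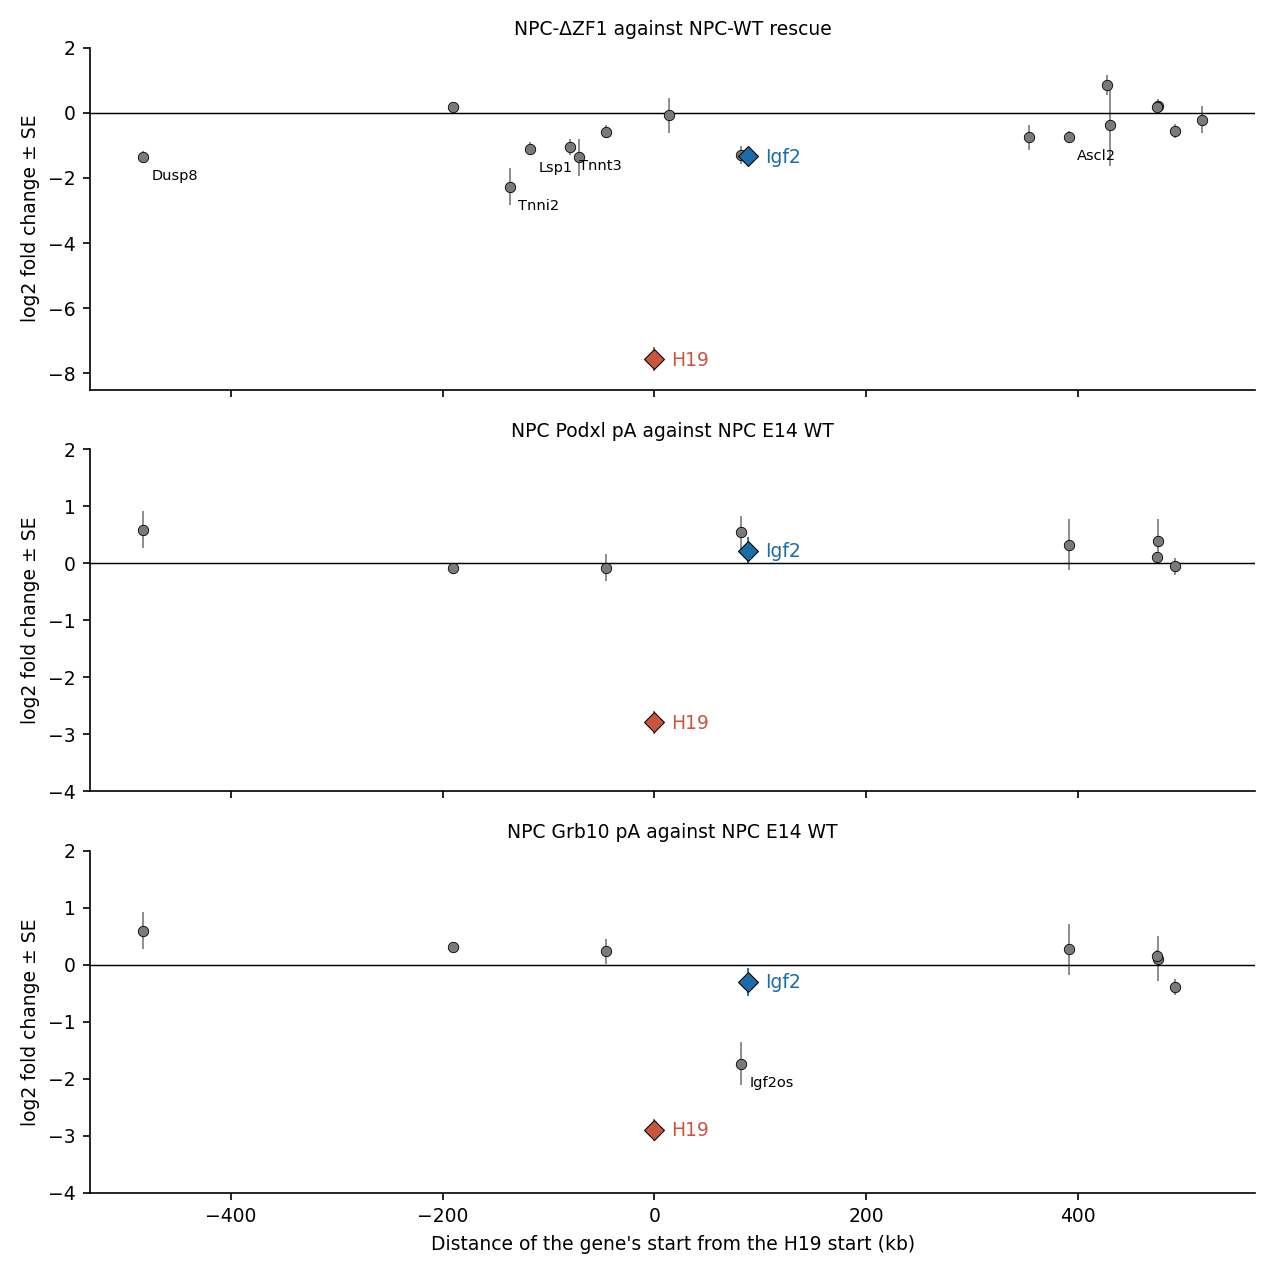
Log2 fold change with its SE of H19 (red), Igf2 (blue) and each tested neighbour (grey; called genes named, except Igf2os in the top panel, which lies beside Igf2) against the distance of the gene's start from the H19 start, in kb, positive towards Igf2. H19, which was chosen for its lower level in these comparisons, lies at -7.57, -2.79 and -2.90 in the 3 NPC comparisons, below every other gene shown.

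In ESC-ΔZF1 against ESC-WT, 2 of 17 neighbours were called, 1 lower and 1 higher, beside 2.33% and 1.29% of all genes. Mrpl23 fell from 4.31 ± 0.264 to 1.80 ± 0.256 CPM (SD, n = 2 each; log2 fold change -1.27, SE 0.25, adjusted p = 0.0273, edgeR). Cd81, a tetraspanin gene, rose from 101 ± 3.57 to 144 ± 12.6 CPM (SD, n = 2 each; 0.51, SE 0.10, adjusted p = 0.0307, edgeR). Neither was called when any 1 of the 4 libraries was left out. In the ESCs of the truncation lines 0 of 8 neighbours were called, and 1 was called higher in Grb10 pA without its first library.

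The list of imprint control holds 14 genes whose proteins bind or keep the imprint, among them the DNA methyltransferases and demethylases, all tested in the rescue table. From ESC-WT to NPC-WT 3 rose and 8 fell, with a median log2 fold change of -0.56 against 0.01 for all genes, of which 22% rose and 19.9% fell, so that 3 of 14 higher is near the share of all genes. Without the second ESC-WT library 5 of the 14 fell. Ctcfl, the germline paralogue of Ctcf, fell from 6.84 ± 0.914 to 0.877 ± 0.461 CPM (SD, n = 2 each; log2 fold change -3.07, SE 0.36, adjusted p = 9.02e-05, edgeR), and the demethylase Tet1 fell from 901 ± 109 to 124 ± 10.7 CPM (-2.87, SE 0.12, adjusted p = 4.28e-07, edgeR). Dnmt3l, a cofactor of de novo methylation, rose from 85.9 ± 8.46 to 233 ± 55.1 CPM (1.44, SE 0.15, adjusted p = 4.73e-05, edgeR), and the demethylase Tet3 rose by 1.32 (SE 0.15, adjusted p = 6.99e-05, edgeR). In the ΔZF1 line 3 rose and 6 fell, beside 20.4% and 16.9% of all genes, so that 3 of 14 higher is near that share. In E14 WT 12 passed the filter in ESCs alone, of which 3 rose and 3 fell (13.1% and 17.6% of all such genes), led by Dnmt3l (4.19) and Dnmt3b (2.76) among those that rose and by Tet1 (-1.17) and Tet2 (-0.97) among those that fell.

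In NPC-ΔZF1 against NPC-WT, 4 of these 14 genes were called higher and 1 lower, with a median of 0.35, beside 7.19% and 10.5% of all genes. Zfp57, which binds methylated imprinting control regions, was at 79.8 ± 0.118 against 37.3 ± 5.62 CPM (SD, n = 2 each; log2 fold change 1.10, SE 0.12), Ctcf at 792 ± 9.18 against 462 ± 18.2 CPM (0.78, SE 0.09), and Dnmt3l at 331 ± 1.09 against 233 ± 55.1 CPM (0.51, SE 0.15). Ctcf is counted among the 4, but its row holds endogenous and transgene RNA together. Its values in the NPC and ESC rescue comparisons thus cannot be read as a change of the endogenous gene. Dppa3, which protects the maternal genome from demethylation in the early embryo, had -0.92 (SE 0.25) at 1.58 against 3.03 CPM. In ESC-ΔZF1, where H19 was not called, Ctcf was called higher (0.57, SE 0.09, adjusted p = 0.0161, edgeR) and Dppa3 lower (-1.64, SE 0.26, adjusted p = 0.0154, edgeR). Neither was called there when any 1 of the 4 libraries was left out, and in NPC-ΔZF1 the count was 2 higher and 0 lower without either NPC-ΔZF1 library and 6 higher without the second NPC-WT library. In NPC Podxl pA 0 of 13 were called, beside 0.384% of all genes higher and 0.166% lower. In NPC Grb10 pA 2 of 13 were called higher, Dnmt3l (0.98, SE 0.11) and Tet1 (0.53, SE 0.12), and 0 lower, beside 7.9% and 8.64% of all genes. In ESC Podxl pA 2 rose, Dnmt3l and Dnmt3b, beside 0.0829% of all genes, and 0 were called without the third Podxl pA or the first E14 WT library. In ESC Grb10 pA 1 fell, which was Ctcf (-0.64, SE 0.07, adjusted p = 1.03e-06, edgeR), beside 4.58% of all genes.

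The list of the IGF axis holds ligands, receptors, binding proteins and adaptors of insulin-like growth factor signalling other than Igf2 and Ins2. Of 15 tested, 13 passed the filter in ESCs alone, and from ESC-WT to NPC-WT 9 of these rose and 2 fell, where 20.5% and 21.8% of all such genes did. The ligand Igf1 was at 0.0764 ± 0.108 CPM in ESC-WT and 0.724 ± 0.295 CPM in NPC-WT, and the binding protein Igfbp6 at 0.142 ± 0.0158 and 4.49 ± 1.79 CPM (SD, n = 2 each), but both passed only through the NPCs, so neither fold nor p is given. The receptor Igf2r, which takes IGF2 up for degradation, fell from 125 ± 3.69 to 67.9 ± 5.98 CPM (log2 fold change -0.88, SE 0.10, adjusted p = 9.31e-05, edgeR), and the RNA-binding protein gene Igf2bp2 fell from 98.8 ± 2.00 to 49.8 ± 1.49 CPM (-0.99, SE 0.10, adjusted p = 3.91e-05, edgeR). In the ΔZF1 line 10 of the 13 rose and 2 fell, Igf2r and Igf2bp2 again. Of all such genes 18.1% rose and 18.5% fell, so that 2 of 13 lower does not exceed that share. In E14 WT 8 of the 12 that passed in ESCs rose, led by the binding protein Igfbp5 (3.92) and the adaptor Grb10 (2.68), and 1 fell, Igf2bp2 (-0.98). Of all such genes 13.1% rose and 17.6% fell there.

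In NPC-ΔZF1 against NPC-WT, 3 of these 15 genes were called higher and 2 lower, with a median of 0.07, beside 7.19% and 10.5% of all genes, so that 2 of 15 lower is near the share of all genes. Igf2bp3, whose protein binds Igf2 mRNA, was at 202 ± 4.87 against 81.0 ± 12.1 CPM (SD, n = 2 each; log2 fold change 1.32, SE 0.12), and Grb10, which restrains insulin and IGF signalling, at 471 ± 2.77 against 262 ± 4.27 CPM (0.85, SE 0.09). The binding proteins Igfbp6 and Igfbp4 had -1.66 (SE 0.36) and -0.84 (SE 0.16). Igfbp6 passed the filter only through the NPCs. A gene that passed only through NPC-WT had to be lower in NPC-ΔZF1, and whether Igfbp6 did so was not examined. Igf2bp3 was the 1 gene of this list called in ESC-ΔZF1, higher by 0.82 (SE 0.12, adjusted p = 0.0129, edgeR), and it was not called with any 1 of the 4 libraries left out. In NPC-ΔZF1 the number called lower was 5 without the first NPC-WT library, and 0 and 1 without the first and the second NPC-ΔZF1 library. In NPC Podxl pA 0 of 13 were called, beside 0.384% of all genes higher and 0.166% lower. In NPC Grb10 pA 2 were higher, Igfbp2 (1.35, SE 0.14) and the receptor Igf1r (0.70, SE 0.13), and 2 lower, Igfbp4 (-0.67, SE 0.23) and the edited gene Grb10. Of all genes 7.9% were called higher there and 8.64% lower. In ESC Podxl pA 0 of 13 were called, and in ESC Grb10 pA 3 rose and 1, Grb10, fell. The shares of all genes called higher and lower were 0.0829% and 0.256% in ESC Podxl pA and 4.51% and 4.58% in ESC Grb10 pA.

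The third list holds imprinted genes that are often grouped with H19 and Igf2 in a growth network, and it shares Grb10 and Igf2r with the IGF axis. All 15 tested passed the filter in ESCs alone, and from ESC-WT to NPC-WT 11 rose and 2 fell, with a median log2 fold change of 1.58, beside 20.5% and 21.8% of all such genes. Peg10, a retrotransposon-derived placental gene, rose by 4.14 (SE 0.28, adjusted p = 2.25e-06, edgeR) and the zinc finger gene Peg3 by 3.64 (SE 0.21, adjusted p = 1.19e-06, edgeR), while Plagl1, which encodes a zinc finger factor, fell by 0.63 (SE 0.11, adjusted p = 0.00133, edgeR). In the ΔZF1 line 12 rose and 1 fell, beside 18.1% and 18.5% of all such genes. In E14 WT 11 of the 13 that passed in ESCs rose and 1 fell, which was Plagl1 (-3.23, SE 0.17, adjusted p = 8.52e-15, edgeR). Of all such genes 13.1% rose and 17.6% fell there.

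In NPC-ΔZF1 against NPC-WT, 7 of the 15 imprinted genes were called higher and 1 lower, with a median of 0.45. Of all genes 7.19% were called higher and 10.5% lower, so that 1 of 15 lower does not exceed the share of all genes. H19, which was chosen for its lower level in the mutant NPCs, lay below all 15. The highest were Plagl1 at 138 ± 5.67 against 62.2 ± 7.68 CPM (SD, n = 2 each; log2 fold change 1.15, SE 0.11) and Rian, a noncoding RNA that is maternally expressed as H19 is (0.95, SE 0.19). The 1 lower was Phlda2, a maternally expressed gene that limits placental growth, at 28.5 ± 0.895 against 55.0 ± 4.89 CPM (-0.94, SE 0.12). In ESC-ΔZF1 Plagl1 rose by 0.67 (SE 0.11, adjusted p = 0.0172, edgeR) and Ndn fell by 0.83 (SE 0.19, adjusted p = 0.0396, edgeR), and neither was called with any 1 of the 4 libraries left out. In NPC-ΔZF1 the number called higher was 3 without the second NPC-ΔZF1 library and 5 to 7 without any other. In NPC Podxl pA 1 of 14 was called, Mest (-0.52, SE 0.09), and 0 without the second E14 WT library. There 0.384% of all genes were called higher and 0.166% lower. In NPC Grb10 pA 1 was higher, Peg3 (1.07, SE 0.10), and 3 lower, namely Grb10, Plagl1 (-0.81, SE 0.22) and Mest (-0.67, SE 0.09). Of all genes 7.9% were called higher there and 8.64% lower, so that 1 of 14 higher is near that share. Peg3 was the 1 called gene in ESC Podxl pA (-0.70, SE 0.13, adjusted p = 0.00919, edgeR), lost without the first or second Podxl pA or the second E14 WT library, and in ESC Grb10 pA Peg3 rose while Mest and Grb10 fell. The shares of all genes called higher and lower were 0.0829% and 0.256% in ESC Podxl pA and 4.51% and 4.58% in ESC Grb10 pA.

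Markers of other cell types that such cultures can hold differed beside H19. Extraembryonic endoderm markers had a summed level of 1948 to 2446 CPM in NPC-WT and 8412 to 8503 CPM in NPC-ΔZF1, with 17 of 19 tested genes called higher and 0 lower there, beside 7.19% and 10.5% of all genes. Of these 19, 16 passed the filter in ESCs alone and 3 only with the NPC libraries. A gene that passed only through NPC-ΔZF1 had to be higher there, and how many of the 17 did so was not counted. Ttr, a yolk sac transport protein gene, was at 9.05 ± 0.159 against 0.534 ± 0.0958 CPM, and Hnf4a, an endoderm transcription factor gene, at 8.23 ± 1.62 against 0.577 ± 0.277 CPM (SD, n = 2 each). In NPC Podxl pA the summed level was 2950 to 3136 CPM against 1688 to 2111 in NPC E14 WT. Of 17 tested in Podxl pA, 10 were called higher (7 to 10 with a library left out) and 0 lower, beside 0.384% and 0.166% of all genes. In NPC Grb10 pA the summed level was 1520 to 1831 CPM. There 0 of 17 were called higher and 6 lower, beside 7.9% and 8.64% of all genes. Of the 17, 9 passed the filter in ESCs alone, and through which NPC groups the rest passed was not examined. Their part in the H19 values was not tested.

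Trophoblast markers summed to 415 to 468 CPM in NPC-WT, 267 to 273 in NPC-ΔZF1, 108 to 134 in NPC E14 WT, 142 to 165 in NPC Grb10 pA and 115 to 121 in NPC Podxl pA. In NPC-ΔZF1 1 of 9 was called higher, Eomes, and 5 lower, beside 7.19% and 10.5% of all genes. The lowest were the keratin gene Krt7 at 27.3 ± 0.422 against 74.4 ± 21.5 CPM and the transcription factor gene Hand1 at 18.3 ± 0.568 against 40.8 ± 6.41 CPM (SD, n = 2 each). Without either NPC-ΔZF1 library 2 were called lower. Of 9 trophoblast markers, 0 were called in NPC Podxl pA, beside 0.384% of all genes higher and 0.166% lower. In NPC Grb10 pA 2 were higher and 2 lower, beside 7.9% and 8.64% of all genes. Of the neural progenitor markers 3 of 10 were called higher and 1 lower in NPC-ΔZF1, so that 1 of 10 lower is near the 10.5% of all genes. Their summed level was 830 to 861 CPM there against 345 to 426 in NPC-WT. In NPC Podxl pA 0 of 9 were higher and 1 lower, beside 0.384% and 0.166% of all genes. In NPC Grb10 pA 2 of 9 were higher and 5 lower, beside 7.9% and 8.64% of all genes. Of these 9, 6 passed the filter in ESCs alone. Of the mesoderm markers 5 of 11 were called higher and 2 lower in NPC-ΔZF1, beside 7.19% and 10.5% of all genes. Their summed level was 79.4 to 79.8 CPM against 68.1 to 84.5 in NPC-WT. Of the pluripotency markers 1 of 12 was higher and 2 lower in NPC-ΔZF1, so that 1 of 12 higher is near the 7.19% of all genes. The part of these markers in the H19 and Igf2 values was not tested.

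**Figure D4:**
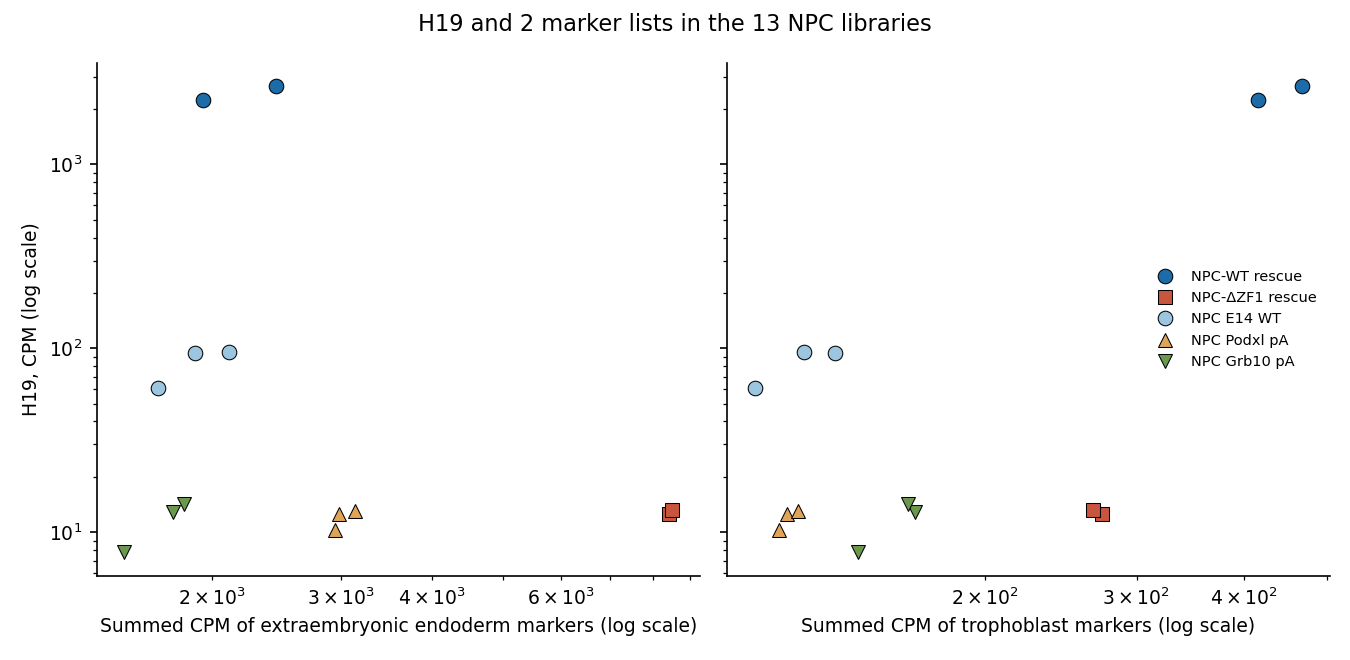
H19 in CPM against the summed CPM of extraembryonic endoderm markers (left) and trophoblast markers (right), on log scales, in each NPC library, with a symbol for each group. H19 lies at 7.76 to 14.2 CPM in the 3 mutant groups, at 60.8 to 95.0 in NPC E14 WT and at 2243 to 2656 in NPC-WT. The 2 tables were normalized separately, and the part of the markers in the H19 values was not tested.

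Across libraries, the genes whose log2 CPM followed H19 most closely, by the lower of its 2 Pearson correlations over the 8 rescue and 18 truncation libraries among 7247 genes, were Thap12 (r = 0.86 and 0.86), Igf2bp1 (0.85 and 0.93), Lig3 (0.83 and 0.87), Rnf145 (0.82 and 0.94) and Dynll2 (0.90 and 0.80). The last 4 lie on chromosome 11, where the median log2 fold change over 1326 genes came to -0.46 between the ESC rescue lines and to -0.56 between the NPC rescue lines. The genes most like Igf2 were Adgrl2 (0.99 and 0.99), Ptpn14 (0.99 and 0.99), Dapk1 (0.99 and 0.99), Gpc1 (0.99 and 0.98) and Col18a1 (0.98 and 0.98). H19 and Igf2 correlated with r = 0.47 over the 8 rescue libraries and 0.93 over the 18 truncation libraries. Of these 18, 9 are ESC libraries at or under the limit of detection for both genes, and a correlation within the NPCs alone was not computed. Libraries of one group share their line, state and preparation, so these values describe the groups and carry no test.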

How the data were processed

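Total RNA of mouse cell lines was depleted of rRNA, primed with random hexamers and sequenced as paired ends by the authors, aligned to mm10 with STAR, and counted per gene without regard to strand. The annotation and the tool versions are not given in the sources used here. The deposited values are whole-number read counts per gene, 1 table for the CTCF rescue lines and 1 for the truncation lines, with no normalization, and 3 columns of the second table that match no sample were not used. Replicates were taken from the sample titles. Beyond the study's term biological replicates, nothing says that they were separate cultures, so p-values measure only the spread between these samples.

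Each table was fitted alone with edgeR 4.0.16 in R 4.3.3 (filterByExpr, TMM, a mean per group, no block, glmQLFTest), and p-values were adjusted by the Benjamini-Hochberg method over 16641 and 13268 genes. Calls used the study's thresholds, an adjusted p not above 0.05 with a log2 fold change of 0.5 or more either way, and SE is the log2 fold change over the square root of F. The test was checked on simulated counts. CPM are counts scaled to a TMM-adjusted total of 1000000. Ratios of counts have exact 95% intervals (Python 3.11.15, scipy 1.17.1), which cover counting error only, and 3 counts were taken as the limit of a 0. Alternatives were RLE scaling, DESeq2 1.42.0, no filter, a minimum of 10 counts per library, only the groups compared, a replicate block and leaving out each library. Counts of genes that pass the filter in the ESC libraries alone were added after the data were seen. No 2 libraries of a group agreed within sampling noise (chi-square test), so each counted once.

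The members, gene lists and tests were chosen with earlier results of these data known. Named genes are the members, the tested neighbours, up to 4 called genes per list and comparison (the 2 highest and 2 lowest log2 fold changes), the edited genes, and the 5 genes most correlated with H19 and with Igf2 (log2 CPM with a prior count of 2, mean of at least 100 normalized counts in each table). Igf2os, Mir675, Mir483, Gm49394, Sox1, Fabp7 and Hes5 were named after their values were seen. Dppa3, Eomes, Grb10, Hand1, Igf2r and Sox2 stand in 2 lists. No genome sequence was used here.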

Additional observations from a re-analysis of the deposited data

Results flagged for a closer look

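H19 changed in opposite directions with differentiation in the 2 rescue lines: every NPC-WT library was above every ESC-WT library (log2 fold change 5.18), and every NPC-ΔZF1 library was below every ESC-ΔZF1 library (log2 fold change -2.02). The difference between these values was not tested, since H19 was chosen for its level in NPC-ΔZF1. Groups of 2 or 3 libraries are too small to be examined for single outlying samples.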

How the results depend on the processing

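Over 18 results for H19 and Igf2, 185 of 190 values under alternatives were counted as unchanged, 5 were not, and 3 of these 5 reversed sign. For tested results, unchanged meant the same direction and the same side of the threshold. For results given as a description, it meant the same direction and a shift smaller than the larger SD between replicates, on the log2 scale. With single libraries left out, H19 in ESC-ΔZF1 against ESC-WT ran from -0.81 to 0.22 on the log2 scale and Igf2 from -0.47 to 0.53, none of them called. H19 in NPC against ESC ran from 8.97 to 11.65 for E14 WT and from 6.07 to 8.72 for Grb10 pA, highest where the 1 ESC library with a count was left out. Igf2 in NPC against ESC ran from 6.52 to 8.94 for Podxl pA and from 5.80 to 8.48 for Grb10 pA, and H19 for Podxl pA from 5.13 to 6.68. The replicate numbers do not pair the libraries (correlations of same-numbered deviations from group means -0.0896 to 0.132). With the replicate block, H19 in ESC-ΔZF1 was at -0.37 (adjusted p = 0.626, edgeR), and the block changed no call of a member. At least 10 counts in every library left no value for H19 and Igf2 in the truncation table, nor did only the groups compared for its ESC comparisons. Ins2 could be fitted only with no filter. Numbers of genes called depended more on the settings. For ESC-ΔZF1 the number was 601, and 1088 with no filter, 1601 with only the groups compared and 8 to 21 with any 1 of the 4 libraries left out. For NPC-ΔZF1 it was 2936, and 1222 with only the groups compared and 943 to 5870 with a library left out. For ESC Podxl pA it was 45, and 94 with no filter, 22 with only the groups compared and 12 to 38 with a library left out. For NPC Podxl pA it was 73, and 45 with at least 10 counts, 133 with only the groups compared and 44 to 60 with a library left out. At least 10 counts lowered the differentiation counts of E14 WT, Podxl pA and Grb10 pA from 4351, 4224 and 4590 to 2683, 2533 and 2860. The endoderm markers called higher in NPC-ΔZF1 numbered 11 to 18 over all alternatives, and 4 to 12 in NPC Podxl pA. The causes were not tested. A count of 0 left up to 1.55 CPM in the truncation table and up to 0.459 CPM in the rescue table.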
